A study of Mus musculus with 21 samples.

Results

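The wound bed of mouse back skin at day 2 after wounding was compared with intact skin on 6 single-colour expression arrays, 3 of each tissue, out of 21 arrays in the series. The 6 arrays were chosen by their titles alone. All animals were female mice, 9 to 13 weeks old, of the strain C57Bl/KS-db/+, so controls and wounded animals alike carry 1 copy of the leptin receptor mutation db. A piece of back skin with the panniculus carnosus, the thin muscle sheet below it, had been excised over 1.5 by 1.5 cm after chemical depilation, and the wound was covered with a polyurethane dressing. The wound bed is the tissue inside that area, collected 2 days later, and intact skin is shaved skin labelled as day 0. In the bed labels, removed skin from the day of surgery is named as well, and the titles were followed here. The design text gives 3 animals for each time point. The labels do not tie an array to an animal, so the p-values reflect how much these samples vary, which may be technical. The remaining arrays hold the bed at days 6 and 15 and the wound edge, a strip of skin 2 mm wide around the wound, at days 2, 6 and 15, with 3 arrays each.

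An excisional wound is first filled by a clot and then invaded by white blood cells, neutrophils first and monocytes after them, before granulation tissue grows and the epidermis closes over it. At this early stage the bed holds little of the epidermis, hair follicles and skin muscle that make up intact skin. Heparan sulfate, the sugar chain for which the series is titled, sits on proteins of the cell surface and the matrix, where it binds chemokines and growth factors, and heparanase cuts it. In bulk tissue, fewer cells of a type and less RNA per cell cannot be told apart.

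Each array carried 1687 probes with 8 spots each, and the files pair almost none of them with a gene. Of the probes, 1612 have a catalogue identifier and 75 a public one, and 3 matched a gene symbol by accession, namely Hpse, Fbln1 and Ndst3. None of 55 cell type marker genes was among the matches, so the tissue labels could not be checked against markers. Of the 26 genes listed for heparan sulfate synthesis, the 11 for its breakdown and the 22 for matrix and proteases, 1 each was matched, and of the 20 proteoglycan, 18 inflammation and 16 growth factor genes none was. No list result can therefore be given. Detection was judged within each array, where a signal had to exceed the 95th percentile of the blank and empty spots (the blank limit). The 3 bed arrays detected 832, 756 and 882 probes and the 3 intact arrays 851, 541 and 696. The bed mean was 823 ± 63.4 and the intact mean 696 ± 155 (SD, n = 3), a difference of 127 that did not exceed the spread (exact two-sided permutation p = 0.3, where 3 against 3 cannot go below 0.1). Intact replicate 2 was the dimmest of the 6, with a median spot signal of 1.27 times the local background against 1.66 to 2.21 on the other 5, and without it the difference in detected probes was 49.8.

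A minority of the tested probes were called between the early wound bed and intact skin, in both directions. Of the 974 probes tested, 83 were called, which is 8.52%, with 42 higher in the bed (4.31%) and 41 lower (4.21%), at a Benjamini-Hochberg adjusted p below 0.05 in limma. The 42 that rose did so by a median of 1.93 on the log2 scale (0.84 to 4.83), and the 41 that fell had a median log2 difference of -1.97 (-4.56 to -1.07). The median over all tested probes was 0.02, a signed value that quantile normalization holds near 0. The absolute log2 difference had a median of 0.46 over all tested probes and 0.41 over the 891 not called. Across the tested probes, which are not independent replicates, arrays of the same tissue correlated at r of 0.857 to 0.944 in the bed and 0.925 to 0.930 in intact skin, and arrays of different tissue at 0.768 to 0.847. In all 83 the 3 bed arrays lay on one side of the 3 intact arrays, against 322 of the 974 tested probes (33.1%) without such an overlap, 169 with the bed above and 153 with it below. At an adjusted p below 0.01 there were 28 rises and 19 falls.

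Size and call went together, which the test builds in, since it divides the log2 difference by its standard error. Among probes at least 2-fold higher in the bed, 41 of 82 were called, and among those at least 2-fold lower, 41 of 92. At 4-fold or more the counts were 18 of 20 and 19 of 22, and at 8-fold or more 6 of 6 and 9 of 10. The 5 probes that differed at least 4-fold without a call had standard errors of 0.66 to 1.30 on the log2 scale, and in 4 of them the groups did not overlap. Across the tested probes the median standard error was 0.41, and the 95% interval of a log2 difference, without adjustment, reached a median of 0.86 to either side. A call needed an adjusted p below 0.05, which is stricter than this interval. With 3 arrays a group, a change below 2-fold in a single probe was mostly not detectable, and one somewhat above 2-fold was often not called. The SD over the 3 bed arrays had a median of 0.33 and that over the 3 intact arrays 0.38.

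**Figure D1:**
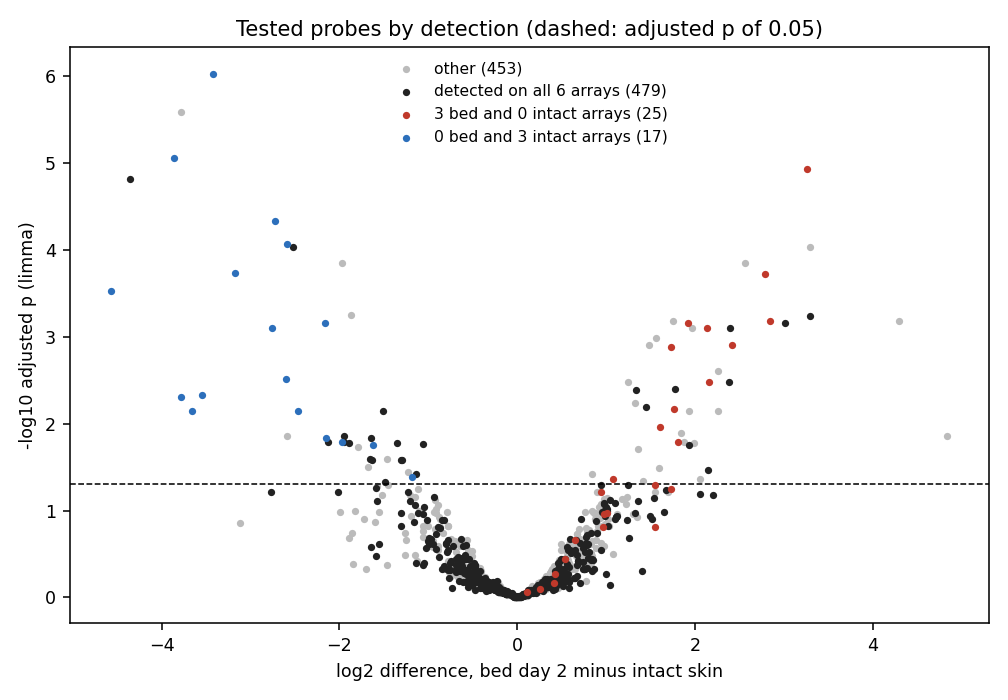
Each point is 1 of the 974 tested probes, with the log2 difference between bed at day 2 and intact skin on the x axis and the -log10 adjusted p of limma on the y axis; colour gives the number of arrays that detected the probe. The 17 probes detected on all 3 intact arrays and on no bed array (blue) all lie on the left above the dashed line, while the 25 with the opposite pattern (red) lie on both sides of it.

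Many of the changes were between signal and no measurable signal. Of the 1687 probes, 479 were detected on all 6 arrays, and 675 on none of them. A set of 17 probes was detected on all 3 intact arrays and on no bed array, and all 17 were called lower. The reverse pattern, 3 bed arrays and no intact array, was shown by 25 probes, of which 12 were called higher. These probes passed the filter on dim probes through their bright group, so their calls are no measure of how often transcripts change. Of the 479 probes detected on all 6 arrays, 25 were called (5.22%), 9 higher and 16 lower. Their log2 differences ran from 1.34 to 3.29 for the rises and from -4.35 to -1.07 for the falls. In all, 371 probes were detected on more bed than intact arrays and 107 on more intact than bed arrays. The dimmest array stands in the intact group, and the difference in detected probes per array was 127 with it and 49.8 without it.

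The catalogue probes named here were picked by a rule, as the largest rise and the largest fall among called probes detected on all 6 arrays, and the largest rise and fall where the dimmer group did not detect the probe on any array. The rule also required the 3 bed arrays to lie on one side of the 3 intact arrays, so that separation is no result. What they measure is not given in the sources used here. Probe M200000230 rose the most among probes detected on all 6 arrays. Its log2 signal was 13.88, 13.18 and 13.58 on the bed arrays and 11.17, 10.02 and 9.58 on the intact arrays. Every bed array was brighter than every intact array by more than the spread within either group. On intact replicates 2 and 3 the probe was only 0.10 and 0.22 above the blank limit on the log2 scale before normalization. On intact replicate 1 it was 2.45 above. The log2 difference was 3.29 (SE 0.56, 95% interval 2.12 to 4.46, limma adjusted p = 0.000579), which is 9.78-fold. Within an array, its spots had an SD of 0.09 to 0.44 on the log2 scale.

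Probe M200000053 was bright in the bed and not above the blank limit in intact skin. The bed arrays read 11.77, 11.92 and 11.54, and the intact arrays read 8.64, 8.14 and 8.69, none of which was detected. The bed readings had an SD of 0.19 and the intact readings one of 0.30 (n = 3), and the groups were far apart. Its rise in the bed was at least 5.16-fold (limma adjusted p = 1.17e-05). For this bound, the bed mean was set against the mean over the intact arrays of the lowest detected signal on each, or of the probe's reading if brighter. All bounds given here are on group means and leave out the spread between arrays. Of the 15 called rises that no intact array detected, 14 had such a bound above 1, with a median of 1.84-fold and a lowest value of 1.03-fold.

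Probe M200001262 fell the most among probes detected everywhere. The intact arrays read 14.14, 13.32 and 13.27, and the bed arrays read 9.16, 9.35 and 9.15. The bed values were close to each other (SD 0.11) and only 0.17 to 0.35 above the blank limit of their arrays on the log2 scale before normalization. The log2 difference was -4.35 (SE 0.53, 95% interval -5.46 to -3.25, limma adjusted p = 1.51e-05), so the probe was 20.5-fold lower in the bed (95% interval 9.52 to 43.9).

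Probe M200000665 was detected on every intact array and on no bed array. It read 12.66, 12.44 and 11.37 in intact skin, and 8.24, 7.45 and 7.08 in the bed. Intact replicate 3 was the lowest of its group and still above the brightest bed array. On the group means, its signal in the bed was lower by at least 9.32-fold (limma adjusted p = 0.000297). This bound leaves out the spread between arrays, and the limma 95% interval from the readings as they stand began at 8.23-fold. The bound was the highest among the 20 called falls that no bed array detected. Over these 20 the median bound was 3.11-fold and the lowest 1.33-fold.

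**Figure D2:**
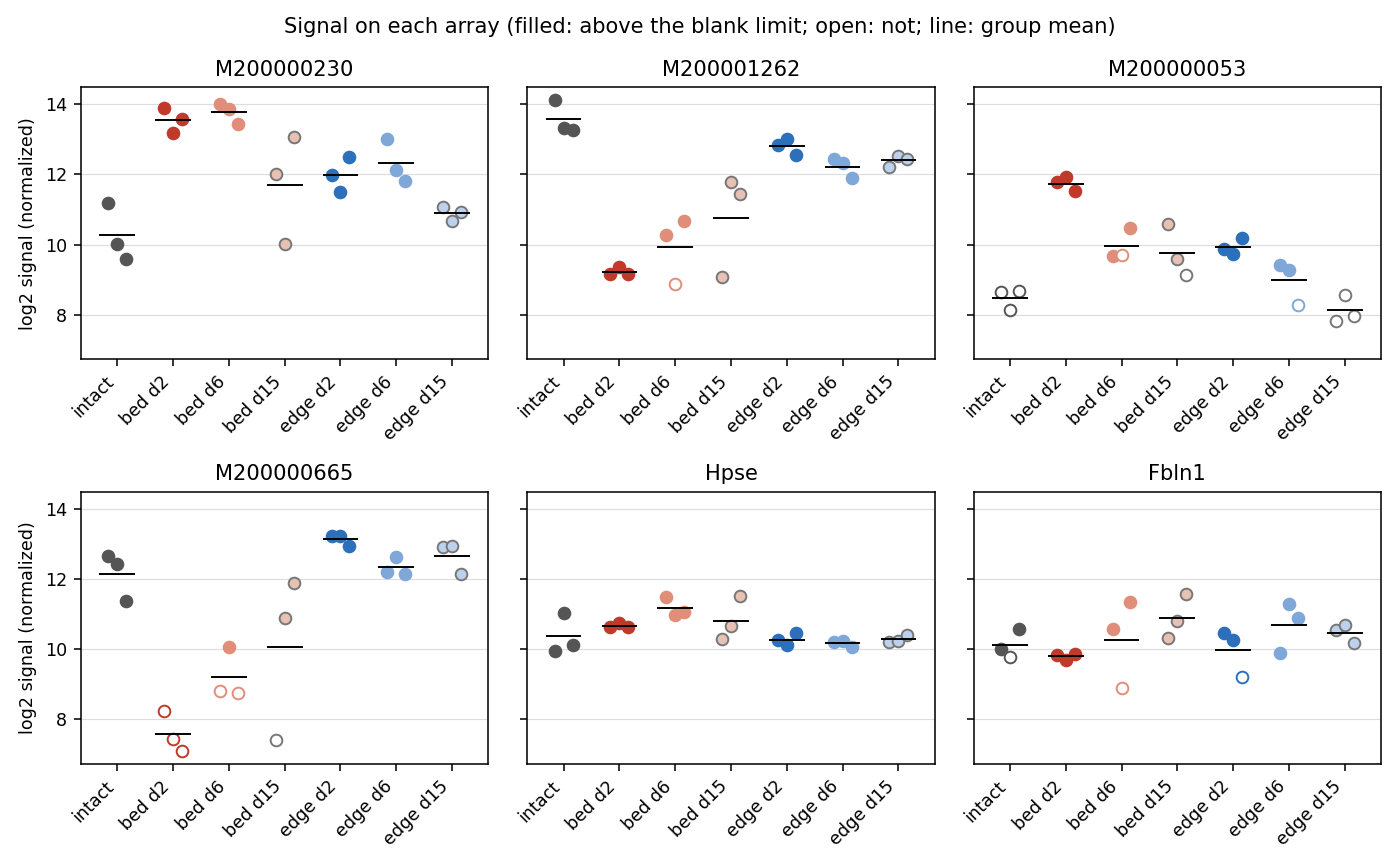
Normalized log2 signal (y axis) on each of the 21 arrays by group (x axis), for the 4 catalogue probes and for Hpse and Fbln1; filled points were above the blank limit of their array, open points were not, and lines are group means. The bed and intact arrays are apart for the 4 catalogue probes, as the rule that picked them required, and overlap for Hpse and Fbln1, which were named for their symbols.

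These 4 probes kept their calls in all 22 alternative settings tried, with limma adjusted p of at most 0.00672 for M200000230, 0.000344 for M200001262, 0.000349 for M200000053 and 0.00441 for M200000665. They were picked for their size on these same arrays, and 40 of the 83 called probes kept their calls in all 22. Bed and intact arrays share only 1 of the 3 scan days, with 1 bed and 2 intact arrays. On that day alone the bed array differed from the mean of the 2 intact arrays by 4.08, -4.14, 3.36 and -3.66 on the log2 scale for M200000230, M200001262, M200000053 and M200000665, respectively. Over the 83 called probes the median absolute log2 difference on that day was 1.86. For the called probes, these 4 included, the sign on that day is set in advance, since their bed and intact arrays do not overlap.

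Heparanase transcript was not distinguishable between the early bed and intact skin. The Hpse probe read 10.64, 10.74 and 10.64 in the bed and 9.95, 11.02 and 10.13 in intact skin. The bed arrays were tightly grouped and lay inside the range of the intact arrays. The log2 difference was 0.30 (SE 0.32, 95% interval -0.37 to 0.98, limma adjusted p = 0.656), so neither a modest fall nor a rise of up to 0.98 on that scale can be set aside at this precision. Intact replicate 2, the dim array, gave the highest intact reading, and without it the log2 difference was 0.63 (adjusted p = 0.302). On the shared scan day it was 0.06. Group means of Hpse in the other tissues ran from 10.17 ± 0.10 in the edge at day 6 to 11.17 ± 0.27 in the bed at day 6 (SD, n = 3). The day 2 bed differed from the day 6 bed by -0.50 (SE 0.32, limma adjusted p = 0.348), and it was called in neither direction against the bed at day 15 or the edge at day 2.

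Fibulin-1, a glycoprotein of elastic fibres and basement membranes encoded by Fbln1, was also not called. Its probe read 9.84, 9.69 and 9.87 in the bed and 10.01, 9.77 and 10.58 in intact skin, where replicate 2 did not detect it. The groups overlapped, with a log2 difference of -0.32 (SE 0.51, 95% interval -1.38 to 0.74, limma adjusted p = 0.774). Ndst3, which encodes an enzyme that removes acetyl groups from heparan sulfate and adds sulfate, was detected on none of the 21 arrays, and no fold is given for it. Among the 43 probes with a public identifier that were tested, 4 were called (9.30%), 2 higher and 2 lower, a share near the 8.49% of the catalogue probes.

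The probes called at day 2 were then followed on the arrays of the other groups, which entered the choice through the pooled spread, the normalization and the filter. With the 6 arrays alone in the fit, 115 probes were called, 79 of the 83 among them. The median log2 signal of the 42 that rose was 10.93 to 11.36 on the bed arrays of day 2 and 8.92 to 9.09 on the intact arrays. On the bed arrays of day 6 it was 9.92 to 10.52, and on the edge arrays of day 2 it was 9.56 to 9.68. The 41 that fell had a median of 8.46 to 8.81 in the bed at day 2 and 10.78 to 11.28 in intact skin. On the bed arrays of day 6 they stood at 8.80 to 9.22, near the level of day 2, and on the edge arrays of day 2 at 10.46 to 10.96, near that of intact skin. The bed arrays of day 15 were spread, as replicate 1 read 10.66 for the rises and 9.03 for the falls, and replicates 2 and 3 read 9.54 and 9.77 for the rises and 10.49 and 10.01 for the falls. The median over all tested probes was 10.16 to 10.17 on every array, as quantile normalization sets it. The day 2 bed and intact levels follow from the choice of the probes, so these levels are a description.

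**Figure D3:**
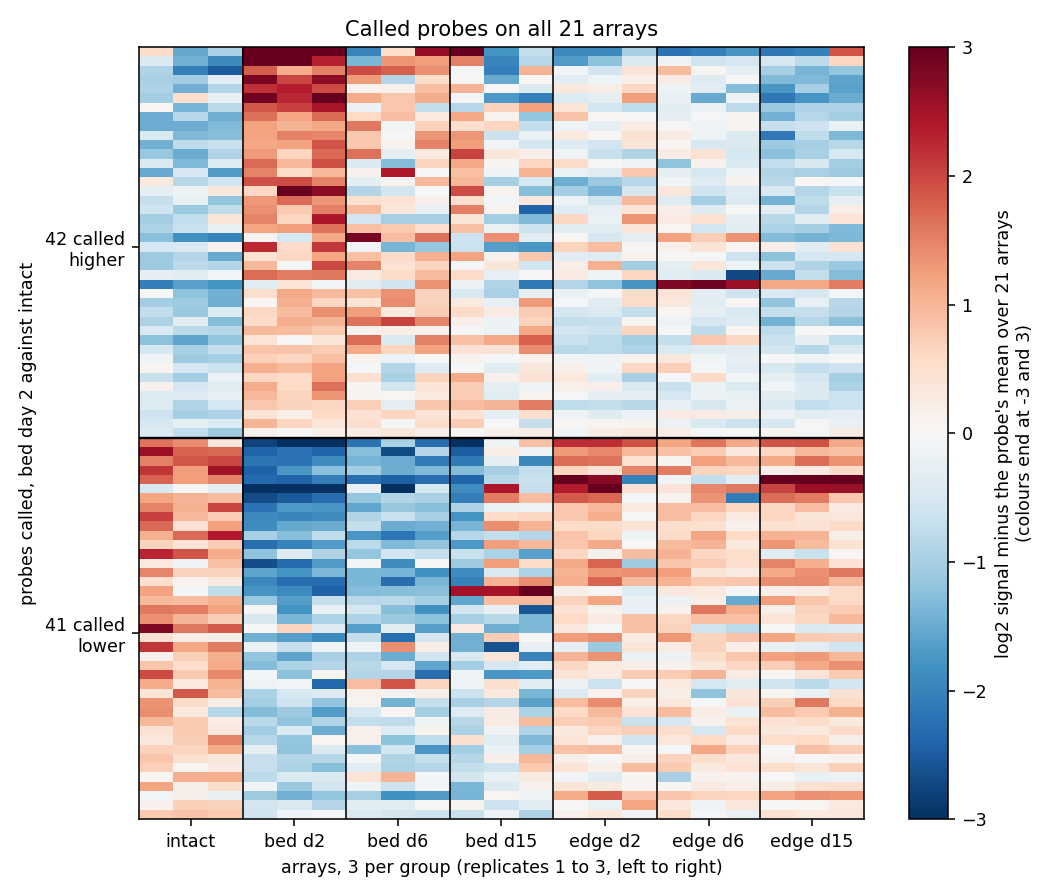
Rows are the 83 probes called between bed at day 2 and intact skin, ordered by size of difference within each direction, columns are the 21 arrays, and colour is the log2 signal minus the probe's mean over the 21 arrays. The 42 called higher (top) are high in the bed at day 2, some of them as high or higher in a later bed, and the 41 called lower (bottom) are low in the beds of days 2 and 6 and on bed day 15 replicate 1.

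Detection of the called probes was read from the same spots that were used to choose them, so the counts below are a description. Over all 1687 probes, the bed arrays of day 2 detected 832, 756 and 882 and the intact arrays 851, 541 and 696. On the edge arrays of day 2 this was 792, 840 and 544. The 42 probes that rose were detected 42, 39 and 42 times on the bed arrays of day 2, and 26, 10 and 19 times on the intact arrays, where the lowest count is that of the dim replicate 2. On the edge arrays of day 2 the counts were 31, 30 and 17. Of the 41 that fell, the intact arrays detected 41, 36 and 41, the bed arrays 19, 18 and 19, and the edge arrays of day 2 detected 40, 38 and 27. Edge replicate 3 is also a dim array, at 1.26 times the local background.

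**Figure D4:**
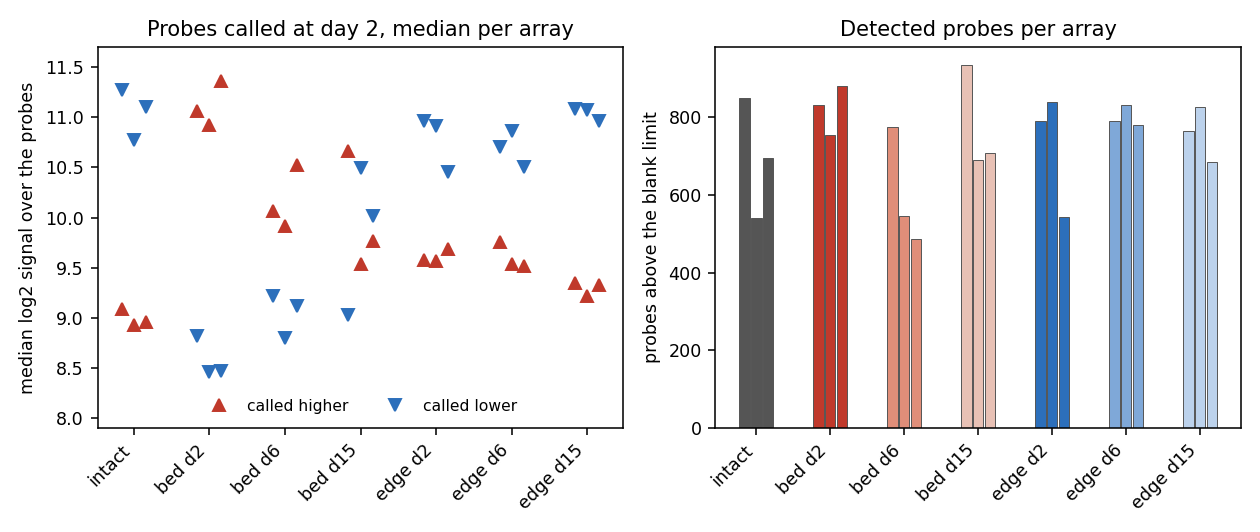
The left panel gives, for each of the 21 arrays by group, the median log2 signal over the 42 probes called higher (triangles up) and the 41 called lower (triangles down) between bed at day 2 and intact skin; the right panel gives the number of the 1687 probes above the blank limit on each array. The rises stand above the falls on all bed arrays of days 2 and 6 and on bed day 15 replicate 1, and below them on the other bed arrays of day 15 and on all intact and edge arrays.

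Direct tests asked where the day 2 bed differs from 3 other groups of the wound. The intact arrays enter these tests through the pooled spread and the normalization, and not through the means compared. Against the edge of the same day, 87 of the 974 probes were called (8.93%), 38 higher in the bed (3.90%) and 49 lower (5.03%). Of the 42 probes that had risen against intact skin, 17 were also higher than in the edge and none lower, with a median log2 difference of 1.24. Of the 41 that had fallen, 26 were also lower than in the edge and none higher, with a median of -1.72. Both tests use the bed arrays of day 2, so these counts, and the tests of single probes below, are not independent of the choice of probes. Over all tested probes the median difference from the edge was 0.06. The edge arrays read 12.83, 13.01 and 12.56 for probe M200001262, and the log2 difference of the bed from them was -3.58 (SE 0.53, limma adjusted p = 0.000155). For probe M200000665 the edge arrays read 13.23, 13.23 and 12.94. On the group means the bed was lower by at least 18.4-fold (limma adjusted p = 6.54e-05), a bound that leaves out the spread between arrays. Without edge replicate 2, 54 probes were called in all, and 59 were called with scan day as a block.

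Probe M200000053 was higher in the bed of day 2 than in every group it was tested against. It was picked for its rise on the same bed arrays, so these tests are not independent of that choice. The log2 difference (limma, SE 0.38) was 1.80 from the edge of day 2 (adjusted p = 0.00384), 1.79 from the bed of day 6 (adjusted p = 0.00916) and 1.97 from the bed of day 15 (adjusted p = 0.00376). Group means were 9.94 ± 0.23 in the edge of day 2, 9.95 ± 0.45 in the bed of day 6 and 9.77 ± 0.75 in the bed of day 15 (SD, n = 3). In all, 5 of the 974 probes (0.513%) were called higher in the bed of day 2 than in each of these 3 groups and in intact skin, and 0 were called lower than all 4 (limma). At an unadjusted p below 0.05 in each of the 4 tests, the counts were 25 higher and 6 lower. Probe M200000230 had another course. It stood at 13.77 ± 0.30 in the bed of day 6, with a log2 difference between days 2 and 6 of -0.22 (SE 0.56, adjusted p = 0.837), at 11.71 ± 1.55 in the bed of day 15 (difference 1.84, adjusted p = 0.0525) and at 11.99 ± 0.49 in the edge of day 2 (difference 1.55, adjusted p = 0.0959).

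Between the beds of day 2 and day 6, 63 probes were called (6.47%), 38 higher at day 2 (3.90%) and 25 lower (2.57%). Between days 2 and 15 there were 65 (6.67%), with 34 higher (3.49%) and 31 lower (3.18%). Of the 42 probes that had risen against intact skin, 10 were higher at day 2 than at day 6 and 12 higher than at day 15. Of the 41 that had fallen, 1 was lower at day 2 than at day 6 and 10 were lower than at day 15. The day 6 count was 34, 38, 31, 33 and 99 without bed day 2 replicate 1 or 2 or bed day 6 replicate 1, 2 or 3. The day 15 count was 29, 23 and 39 without bed day 2 replicate 1, 2 or 3, and 126, 16 and 18 without bed day 15 replicate 1, 2 or 3. With only the arrays of the 2 groups in the fit, 14 and 8 were called. Set beside intact skin, which all 3 bed days share as control, 14 of the 42 rises were called in the same direction at both later days, 8 at day 6 alone and 20 at neither. Of the 41 falls, 16 were called at both, 13 at day 6 alone, 4 at day 15 alone and 8 at neither, and 1 of the 41 was called higher at day 15. The probes called at the later days, in either direction, were 19.3% of those tested at day 6 and 12.0% at day 15. The share of all tested probes called in the same direction at both days is not given here. The shared intact arrays can raise such counts, so they are a description. In the edge of day 2, where 0.411% were called against intact skin, the 42 had a median log2 difference of 0.60 and the 41 one of -0.44, without a call. At day 6 the edge had 1.44% called, among them 3 of the 42 higher and 1 of the 41 lower, and at day 15 it had 1.85% called, among them 1 of the 42 higher and 4 of the 41 lower.

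The count of 83 ranged from 59 to 76 on leaving out each of the 6 arrays in turn, and it was 70 with scan day as a block. Without the dim intact replicate 2 it was 66, with 34 higher and 32 lower. Of the 83 probes, 40 were called in the same direction in all 22 alternatives, 25 of them rises and 15 falls, and none was called in the opposite direction in any. The balance of rises and falls depended on the scaling. When each array was scaled by the 75th percentile of the 323 probes that every array detected, it was 36 higher and 58 lower, and the median of all tested probes stood at -0.19 on the log2 scale. With the 75th percentile of each array over all probes it was 54 higher and 40 lower. The median of each array gave 44 higher and 47 lower, and the authors' deposited values gave 55 higher and 39 lower.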

How the data were processed

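The values of 21 arrays were analysed, of which 6 hold the comparison. Total RNA (500 ng) was amplified and labelled with Cy3, per the labels' protocols. Scanner output was deposited, with a linear intensity per spot that reached at most 65535. Spots were quantified at 532 nm with software version 4.1, per the file headers. Each spot has a flag (0 to 3) as its other deposited value, with no stated meaning. A further deposited table holds scaled log scores and was rebuilt from the spot signals to within 0.00138, with a median of 1 and an SD of 0.2 per array and no background subtraction.

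Intensities were background-corrected with normexp (offset 50) in limma 3.58.1 under R 4.3.3, averaged on the log2 scale over the spots without flag 1, and quantile normalized over the 21 arrays, so a change shared by most transcripts would not be seen. Probes detected on at least 3 of 21 arrays were tested (974), and 713 were not. A model with a mean for each of 7 groups and empirical Bayes moderation gave two-sided p-values, adjusted over all tested probes by the Benjamini-Hochberg method. The 21 arrays were on 21 slides and 3 scan days. The 3 pairs of arrays within each group had a median absolute difference of 2.35 to 3.28 times the error of their spots. If only spot error set 2 arrays apart, 0.674 would be the value. Alternatives changed scale, background, filters, spots, blocks, weights and arrays.

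Genes named were all those with a symbol through the RefSeq table (assembly GRCm38.p6), and 2 catalogue probes that rose and 2 that fell by largest difference or bound. The probes, lists and tests were chosen with earlier results of these data known. No probe sequence was used here.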

Additional observations from a re-analysis of the deposited data

Results flagged for a closer look

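For 3 of the named probes the change from intact skin at day 2 differed from that in another tissue or at another day, by a direct test in which the intact means cancel (limma, adjusted over the 974 probes). These probes were picked for large differences between the day 2 bed and intact skin. The tests use the same day 2 bed arrays, so they are not independent of that choice. M200001262 had a log2 difference between the day 2 bed and the day 2 edge of -3.58 (adjusted p = 0.000155, lower in all 3 bed arrays). On the group means, M200000665 was at least 18.4-fold lower in the day 2 bed than in the day 2 edge (adjusted p = 6.54e-05, lower in all 3 bed arrays). This bound leaves out the spread between arrays. Against the day 15 bed the same calculation gave 2.18-fold lower (adjusted p = 0.0468). There replicate 1 was not detected and read 7.40, inside the day 2 range of 7.08 to 8.24, so the groups overlap and this value is no strict bound, and replicates 2 and 3 read 10.88 and 11.90. M200000053 was higher in the day 2 bed than in the day 2 edge by 1.80 on the log2 scale (adjusted p = 0.00384), than in the day 6 bed by 1.79 (adjusted p = 0.00916) and than in the day 15 bed by 1.97 (adjusted p = 0.00376), with all 3 arrays of day 2 above those of each group. The causes of these differences were not tested.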

How the results depend on the processing

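Between the day 2 bed and intact skin, 21 of 22 alternatives kept the number of called probes within 1.5 times of 83, and the exception was weighting the arrays by their estimated quality, which gave 184 (106 higher and 78 lower). Without any 1 array, 59 to 76 were called, 31 to 40 higher and 28 to 37 lower. For the comparisons of the day 2 bed with the bed of day 6, the bed of day 15 and the edge of day 2, the ranges without any 1 array were 31 to 99, 16 to 126 and 54 to 97. With array weights, 124 were called against day 6 and 373 against the edge. With only the arrays of the 2 groups, 14 were called against day 6 and 8 against day 15, while 115 were called against intact skin and 109 against the edge. With no filter on dim probes, 43 were called against day 15. The causes were not tested. Higher calls made up 60.3% against day 6 and 52.3% against day 15, and 43.7% against the edge. Scaled by the 75th percentile of the probes that every array detected, the shares were 40.8%, 33.9% and 29.4%, and against day 6 they were 46.2% with the 75th percentile and 76.4% with the median of each array. Replicate numbers recur in every group. With them as a replicate block 83 probes were called against intact skin, 79 of them shared with the fit without it, and 49, 47 and 82 against day 6, day 15 and the edge. The numbers do not pair the samples by the labels. Same-numbered bed and intact arrays deviated together with r of 0.09, 0.05 and 0.13 across probes, each the highest of its array. These values are low, and for bed replicate 2 the r with intact replicate 1 was 0.01. Whether the samples are paired cannot be decided from them. The 4 catalogue probes, picked for size on these arrays, kept their calls in all 22 alternatives, as 40 of the 83 called probes did. Hpse and Fbln1 stayed uncalled in all 22, and the difference in detected probes per array kept its sign in all 9 tried (49.8 to 205). On intact replicate 2, 53.8% of the blank spots were brighter than the median probe, against 3.05% on bed replicate 3, so what can be measured of dim probes is limited.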
